A study of Rattus norvegicus with 8 samples.

Results

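A set of 10 genes of the bone morphogenetic protein (BMP) pathway were followed in rat osteoblast-like cells, namely the ligands Bmp2, Bmp4, Bmp6 and Bmp7, the antagonists and modulators Nog, Grem1, Chrd and Bmper, and the early targets Id1 and Smad6. They were chosen by gene symbol, as 10 of 30914 gene names on the array, and had 13 probes. The cells were primary cultures from the calvaria of 3-5-day-old rats, either left non-irradiated (n = 4 arrays) or exposed for 60 s to a low-level Er:YAG laser, with a fluence of 3.3 J/cm2 (n = 4 arrays). RNA of both groups was taken 6 h later, after a change to osteoinduction medium, and read on 1-color arrays, whose number limits the precision of every value. The question was whether ligands, antagonists and targets differed between irradiated and non-irradiated cells of the same replicate number.

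BMPs are secreted signals of the TGF-beta family that were named for their ability to induce bone. They bind pairs of serine/threonine kinase receptors, which phosphorylate SMAD proteins that enter the nucleus with SMAD4 and act on target genes. Secreted antagonists bind the ligands and keep them from the receptors, and in osteoblasts both ligands and antagonists are made by the responding cells. Id1 and Smad6 are transcribed soon after BMP signaling begins, and Smad6 in turn inhibits the pathway.

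Levels are given as log2 of the normalized signal, and are compared between arrays for the same probe. Probes differ in brightness, so the sum over a marker list follows its brightest probe and gives no ranking of its genes. A probe was tested where each of the 4 arrays of a group, either or both, had it well above background. The arrays differed in ways that the groups do not explain. Across 26250 probes, the irradiated minus non-irradiated difference of pair 1 correlated with that of pair 2 at r = -0.58, while pairs 3 and 4 correlated at r = 0.09. Genes are not independent replicates, and these values are descriptions. All 8 arrays lay on 1 slide, with non-irradiated samples in columns 1 and 3 and irradiated samples in columns 2 and 4. Irradiation and slide column therefore cannot be told apart. Replicates 1 and 2 lay in row 1 of the slide and replicates 3 and 4 in row 2. Each pair held adjacent columns, so replicate number and slide position cannot be told apart either. Of 11 listed osteoblast markers, 11 were well above background on both arrays of replicate 1 and 10 on the other 6 arrays, where only Phex was not, and the brightest probe was that of Col1a1. All 5 endothelial, 3 keratinocyte and 2 osteocyte markers listed were so on all 8 arrays, so that these counts do not tell cell types apart. In bulk RNA, fewer cells of a type and less RNA per cell cannot be told apart.

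No member passed the test for irradiation. Of 26391 probes fitted with limma, 0 (0%) had an adjusted p under 0.1, and the smallest adjusted p was 1.00. At an unadjusted p under 0.05 there were 670 probes (2.54%), and 0 of the 11 tested member probes were among them. The groups overlapped for each of the 11 member probes, whereas they did not overlap for 0.579% of all probes. A test of replicate numbers, chosen after the values were seen, called 2417 of 26250 probes (9.21%) at an adjusted p under 0.1. Among them were Bmp7, Grem1, Bmper and 1 of 2 tested Bmp2 probes. None of these was called when replicate 1 alone was left out. Id1, Smad6 and Nog kept within a narrow range.

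Bmp2, a ligand that drives osteoblast differentiation, had 3 probes. The sequences of the Bmp2, Bmp4 and Bmp6 probes are shown because related ligands could share signal, and those of Nog and Smad6 stand for an antagonist and a target. Capitals mark the bases that the Bmp2 and Bmp4 probes share, 36 of 46 where they overlap. All are written 5′ to 3′ as on the array, with positions on rn4.
Bmp2, chr3:121381127-121381186, plus strand: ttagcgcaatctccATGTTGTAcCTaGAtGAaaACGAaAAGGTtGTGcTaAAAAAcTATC
Bmp4, chr15:22283362-22283421, minus strand: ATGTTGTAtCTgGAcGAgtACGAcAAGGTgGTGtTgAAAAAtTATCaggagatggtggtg
Bmp6, chr17:32380203-32380262, minus strand: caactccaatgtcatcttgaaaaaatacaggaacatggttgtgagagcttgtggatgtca
Nog, chr10:77690164-77690223, minus strand: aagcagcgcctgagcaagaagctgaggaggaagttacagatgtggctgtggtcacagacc
Smad6, chr8:68199857-68204156, minus strand, over a gap: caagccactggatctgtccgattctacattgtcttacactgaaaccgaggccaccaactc

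The shown Bmp2 probe read 9.48, 9.10, 8.89 and 8.68 in non-irradiated replicates 1 to 4 and 10.15, 9.31, 8.92 and 8.74 in the irradiated ones. Its level was higher after irradiation in 4 of 4 pairs, by 0.67 in pair 1 and by 0.20, 0.02 and 0.06 in the others, a pattern that 3.57% of all probes had in this direction. The log2 fold change was 0.24 ± 0.15 (SE), with a 95% interval from -0.12 to 0.60 and an adjusted p of 1.00. Most of it came from pair 1, and without replicate 1 it was 0.09. The exact sign-flip test over the 4 pairs, two-sided, gave p = 0.125, the smallest that 4 pairs allow. A second Bmp2 probe, at chr3:121382372-121382431, was higher in 3 of 4 pairs, with a log2 fold change of 0.28 ± 0.14 (SE) and an interval from -0.08 to 0.63. The third Bmp2 probe was not well above background in either group, so that the gene is described by the other probes.

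Bmp4, a close relative of Bmp2, read 9.07, 8.92, 8.77 and 9.35 in non-irradiated replicates 1 to 4 and 9.21, 8.46, 8.86 and 9.27 in irradiated ones. Irradiated cells were higher in 2 pairs and lower in the other 2, with a log2 fold change of -0.08 ± 0.14 (SE). Without replicate 2 the value turned to 0.05. Bmp6 was not well above background on any array of either group, and no fold is given for it.

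Bmp7, a ligand with roles in kidney and skeletal development, read 4.0, 7.18, 7.57 and 6.78 in non-irradiated replicates 1 to 4 and 4.46, 7.67, 7.43 and 6.71 in irradiated ones. Both arrays of replicate 1 lay below all other arrays, and the pairs of the 2 groups tracked each other. The log2 fold change with irradiation was 0.19 ± 0.16 (SE), higher in 2 of 4 pairs, with a 95% interval from -0.20 to 0.57, and was 0.06 with normexp background correction. Between replicate numbers it varied more.

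**Figure D1:**
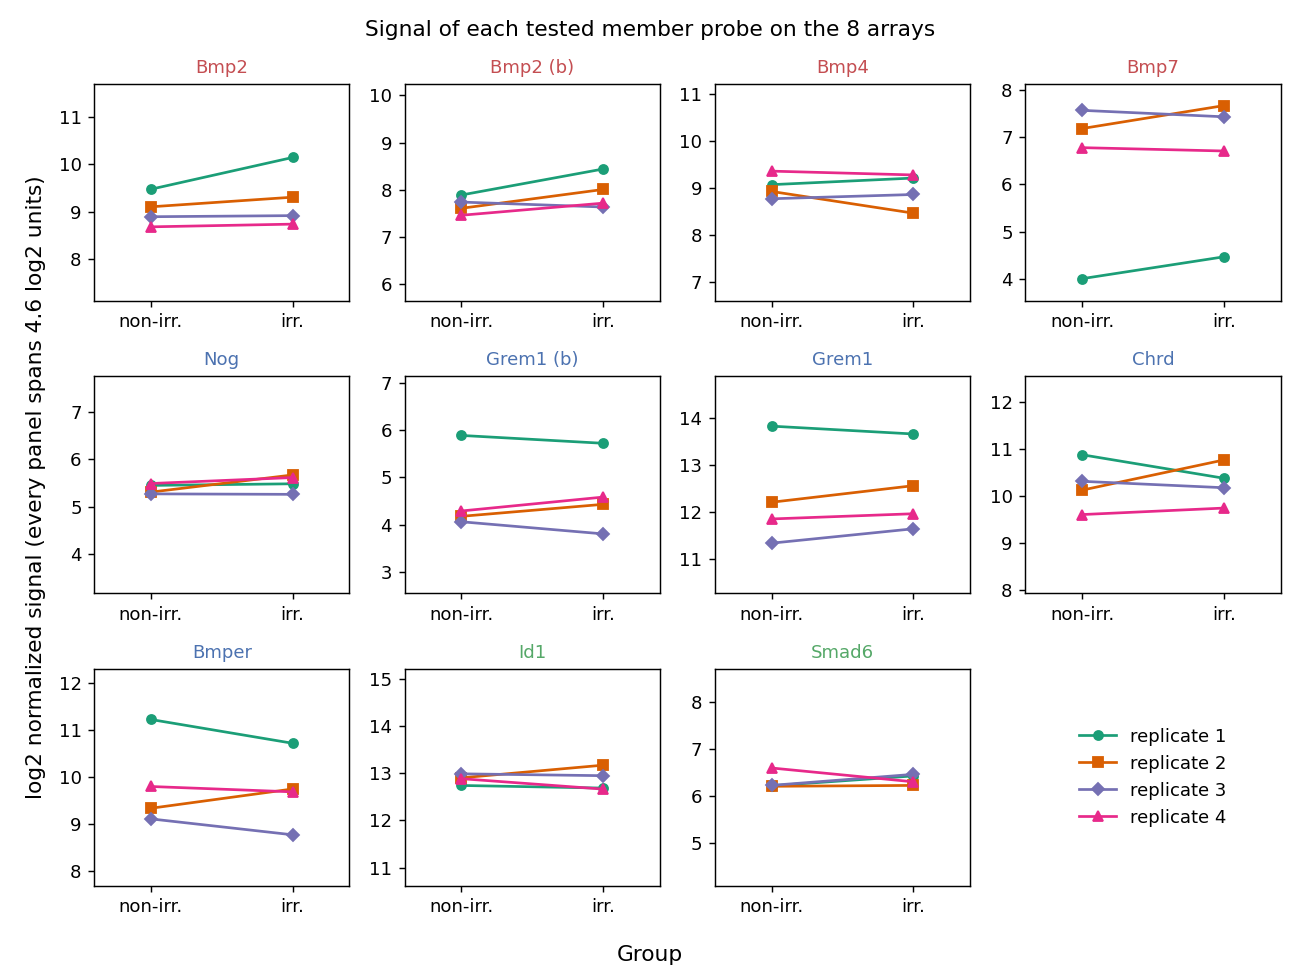
Log2 normalized signal of the 11 tested member probes (vertical axes, each spanning the same number of log2 units) on non-irradiated and irradiated arrays (horizontal axes). Lines join arrays of the same replicate number, and (b) marks the probe that does not stand for the gene. Replicate 1 is low for Bmp7 and high for Grem1 and Bmper.

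Grem1 codes for gremlin, a secreted antagonist that binds Bmp2 and Bmp4. Its probe with 10 spots, at chr3:99597201-99597242, read 13.82, 12.20, 11.34 and 11.85 in non-irradiated replicates 1 to 4 and 13.65, 12.56, 11.64 and 11.96 in irradiated ones. Both arrays of replicate 1 were the highest. The log2 fold change was 0.15 ± 0.13 (SE), higher in 3 of 4 pairs, with a 95% interval from -0.18 to 0.48. A second, dim Grem1 probe, well above background on 4 non-irradiated and 3 irradiated arrays, was also highest in replicate 1, at 5.89 and 5.73, and had a log2 fold change of 0.03 ± 0.14 (SE), or 0.15 with scaling to the 75th percentile.

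Bmper, an extracellular modulator that can inhibit or favor BMP signaling, read 11.22, 9.34, 9.11 and 9.80 in non-irradiated replicates 1 to 4 and 10.71, 9.75, 8.77 and 9.68 in irradiated ones. Replicate 1 was again the highest in both groups. Irradiated cells were higher in 1 of 4 pairs, with a log2 fold change of -0.14 ± 0.17 (SE) and a 95% interval from -0.56 to 0.29. This value was -0.014 without replicate 1 and -0.32 without replicate 2.

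Chrd, which codes for the antagonist chordin, read 10.87, 10.12, 10.31 and 9.61 in non-irradiated replicates 1 to 4 and 10.38, 10.76, 10.17 and 9.74 in irradiated ones. The highest arrays were non-irradiated replicate 1 and irradiated replicate 2, so that pair 1 differed by -0.50 and pair 2 by 0.64. The log2 fold change was 0.04 ± 0.20 (SE), and without replicate 2 it turned to -0.17. Nog, which codes for noggin, lay between 5.27 and 5.49 in non-irradiated and between 5.26 and 5.67 in irradiated cells, with a log2 fold change of 0.13 ± 0.12 (SE). With the deposited log2 values in place of the scanner signals, that of Nog turned to -0.02.

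Id1, an inhibitor of basic helix-loop-helix transcription factors, read 12.74, 12.90, 12.99 and 12.89 in non-irradiated replicates 1 to 4 and 12.69, 13.17, 12.95 and 12.66 in irradiated ones. Its log2 fold change was -0.01 ± 0.13 (SE), with a 95% interval from -0.32 to 0.30. Smad6, an inhibitory SMAD, lay between 6.20 and 6.59 in non-irradiated and between 6.22 and 6.46 in irradiated cells, with a log2 fold change of 0.04 ± 0.14 (SE) and an interval from -0.29 to 0.37. Both intervals leave room for a shift of about 0.3 in either direction, so that such a shift is not excluded by these arrays. The SD between pair means was 0.15 for Id1 and 0.10 for Smad6.

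**Figure D2:**
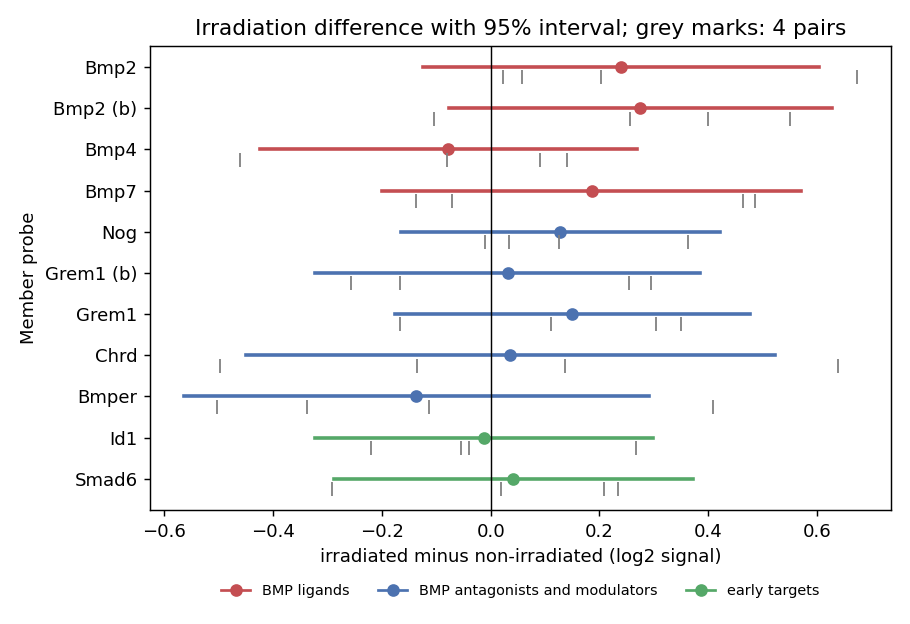
Irradiated minus non-irradiated log2 signal (horizontal axis) of the 11 tested member probes (vertical axis). Points are log2 fold changes of the fit, lines their 95% intervals and grey marks the 4 pair differences. Every interval includes 0.

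Set side by side by role, the median log2 fold change was 0.19 over the 3 tested ligands, 0.08 over the 4 antagonists and modulators and 0.02 over the 2 early targets, beside 0.00 over all fitted probes. With normexp background correction the ligand and antagonist medians were 0.061 and 0.032, and with the deposited values 0.069 and 0.0050. Without replicate 2 the antagonist median turned to -0.058. The target median was below 0 without replicate 1, 2 or 3 and with normexp. Per pair, the ligand median was 0.46, 0.20, 0.02 and -0.07 in pairs 1 to 4. With 3 tested ligands, each ligand median is the value of a single gene. It was Bmp7 for 0.19, 0.061 and 0.069 and in pairs 1 and 4, and Bmp2 in pairs 2 and 3. Bmp7 was dim in replicate 1, at 4.0 and 4.46 beside 6.71 to 7.67 elsewhere. The antagonist median was -0.33, 0.39, -0.07 and 0.12, and the target median 0.08, 0.14, 0.10 and -0.26. Pairs 2 and 4 had the same order of roles, with antagonists highest, and pairs 1 and 3 other orders. No role had the same sign in all 4 pairs, and no test was run over these few genes.

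For Bmp7, Grem1 and Bmper, the SD between pair means was 1.53, 0.97 and 0.85, beside irradiation differences of 0.19, 0.15 and -0.14. A limma test of the replicate numbers, chosen after these values were seen, called 2417 of 26250 probes (9.21%) at an adjusted p under 0.1, and 5 of the 11 member probes. These were Bmp7 (adjusted p = 0.00701), both Grem1 probes (adjusted p = 0.0147 and 0.0294), Bmper (adjusted p = 0.0411) and the shown Bmp2 probe (adjusted p = 0.0953). The second Bmp2 probe was not called (adjusted p = 0.282), nor was Bmp2 with its probes averaged (adjusted p = 0.134) or the shown probe without the filter on dim probes (adjusted p = 0.191). Without that filter, Bmper (adjusted p = 0.129) and the dim Grem1 probe (adjusted p = 0.104) were not called either. The count depended on the replicates in the fit. Without replicate 1, 148 probes and 0 member probes were called, without replicate 2, 9659 probes, without replicate 3, 461 and without replicate 4, 333. With replicates 1 and 2 both left out, 1293 probes were called, with Bmp7 and Bmper among them (adjusted p = 0.0874 and 0.0911). Bmper and Bmp2 were also not called without replicate 3 (adjusted p = 0.147 and 0.175) or replicate 4 (adjusted p = 0.117 and 0.322), while Bmp7 and Grem1 were. Each number stands for 2 arrays, 1 of each group. A p here only sets the spread between the numbers against the spread left within pairs.

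Some markers of other cell types differed between replicate numbers as well. All 5 listed cartilage markers were on the array, with Col2a1 as the brightest probe except in replicate 1, where it was Comp. Their summed signal, as log2, was 12.54 and 12.63 on the non-irradiated and irradiated arrays of replicate 1 and between 15.23 and 16.37 on the other arrays, and Col10a1 was well above background on 0 non-irradiated and 3 irradiated arrays. Its signal was higher after irradiation in 4 of 4 pairs, as 3.57% of tested probes were. Col10a1 was dim and was not tested, and the groups overlapped, at 2.71 to 3.77 in non-irradiated and 3.54 to 4.48 in irradiated cells. Col2a1, the main collagen of cartilage, read 9.84 and 10.23 in replicate 1 and 14.68 to 15.88 elsewhere. Acan and Comp were lowest there too (adjusted p = 0.00541 and 0.0133), but Sox9 was not called (adjusted p = 0.197). The summed signal of 5 skeletal muscle markers went the other way, with a log2 value of 11.35 and 10.94 in replicate 1 and 8.09 to 9.51 elsewhere. Myh3 carried this sum in replicate 1, and Myod1 was not well above background in replicates 3 and 4. Myog was highest in replicate 1 (adjusted p = 0.0717), but Des and Acta1 were not called (adjusted p = 0.884 and 0.226). Replicate 1 had low Bmp7, Col2a1, Acan and Comp and high Grem1, Bmper, Myh3 and Myog, and the part of these markers in the differences was not tested.

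**Figure D3:**
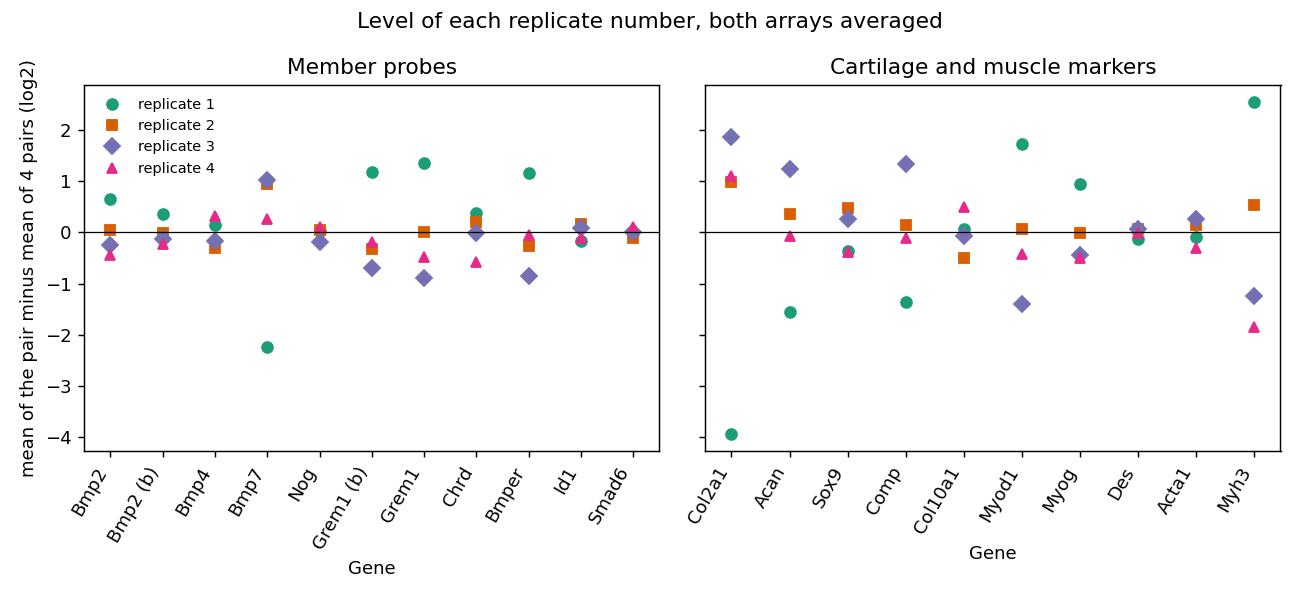
Mean log2 signal of both arrays of a replicate number minus the mean over the 4 numbers (vertical axis), for the tested member probes and for cartilage and skeletal muscle markers (horizontal axes). Replicate 1 stands apart for Bmp7, Grem1, Bmper, Col2a1 and Myh3, and not for Id1, Smad6 or Nog.

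In the other listed cell types some markers differed too. The log2 sum of 5 endothelial markers, with Vwf the brightest, ran from 12.78 to 14.15, and that of 2 osteocyte markers, with Mepe the brightest, from 9.50 to 11.15. Tek had pair means of 8.02 in replicate 1 and 5.76 to 6.28 elsewhere (adjusted p = 0.0273), and Kdr 9.32, 9.31, 7.64 and 7.24 in replicates 1 to 4 (adjusted p = 0.0335). Vwf was called too (adjusted p = 0.0990), but was highest in replicate 2, at 13.81 beside 12.92 in replicate 1. Cdh5, also highest in replicate 2, and Pecam1 were not called (adjusted p = 0.321 and 0.472). Of 6 macrophage and leukocyte markers, with Cd14 the brightest and a log2 sum of 10.12 to 10.72, Ptprc was well above background on 1 array and Csf1r was not on 3. The 3 keratinocyte markers, with Cdh1 the brightest except on irradiated replicate 1, where it was Krt5, had a log2 sum of 7.53 to 9.52, and Cdh1 was lowest in replicate 1 (adjusted p = 0.0301). Krt5 had its highest pair mean there, at 5.56 beside 5.09 to 5.27 elsewhere. That mean joined the lowest array, non-irradiated at 4.67, and the highest, irradiated at 6.45. Neither Krt5 (adjusted p = 0.799) nor Krt14 (adjusted p = 0.134) was called. The osteoblast markers summed to 19.06 to 19.53, a sum carried by Col1a1, Col1a2 and Sparc. Among the dimmer ones, Alpl (adjusted p = 0.0216), Bglap (adjusted p = 0.0275), Ibsp (adjusted p = 0.0662) and Dmp1 (adjusted p = 0.0828) differed between replicate numbers, with the lowest pair mean in replicate 4. Sp7, Runx2 and Spp1 were not called (adjusted p = 0.164, 0.479 and 0.596). Of these, Sp7 was lowest in replicate 2 and Spp1 highest in replicate 4. Alpl, Bglap and Dmp1 were highest in replicate 1, Dmp1 with a pair mean of 6.40 beside 4.38 to 4.98 elsewhere.

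In the rest of the pathway, 0 genes passed the test in either direction in each of the 6 lists. Of 15 other BMP and GDF ligands, 9 were tested, with a median log2 fold change of 0.04. Bmp3, which opposes osteogenic BMPs, had -0.25 ± 0.12 (SE) and was lower in 4 of 4 pairs, as 4% of all probes were. Bmp5, lower in 4 of 4 pairs too, had -0.19 ± 0.12 (SE), Gdf6 0.27 ± 0.15 (SE) and Gdf10 0.00 ± 0.15 (SE). With normexp background correction, Bmp3 had -0.12 and Gdf6 0.10. Of 15 other antagonists and modulators, 11 were tested, with a median of 0.04. Among them Fstl3, a follistatin relative that binds activins, had 0.28 ± 0.14 (SE) and was higher in 4 of 4 pairs. Its difference was 0.64 in pair 1 but 0.0016 in pair 2, and its log2 fold change was 0.14 with normexp. Dand5 had 0.30 ± 0.23 (SE), but 0.026 without replicate 2, Crim1 -0.01 ± 0.18 (SE) and Twsg1 0.04 ± 0.24 (SE).

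The proteases had 5 of 6 genes tested and a median of 0.01. Bmp1, which cleaves chordin, had 0.04 ± 0.12 (SE), Furin, which cuts BMP precursors, -0.06 ± 0.11 (SE) and Pcsk5 0.07 ± 0.12 (SE). Of 14 receptors and co-receptors 10 were tested, with a median of -0.05. All 10 had a value below 0 with quantile normalization, but 9 with scaling to the 75th percentile, 7 with the deposited values and 6 or 7 with any 1 replicate left out. Acvr2a had -0.16 ± 0.16 (SE), Bmpr1b -0.15 ± 0.22 (SE), Acvr1 -0.06 ± 0.11 (SE) and Rgma -0.01 ± 0.15 (SE), and none of these passed the test. Bmpr1b, Acvr1 and Rgma turned above 0 without replicate 1.

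All 11 SMADs and regulators were tested, with a median of -0.03. Smad4, the partner of the receptor-activated SMADs, had -0.27 ± 0.15 (SE), but -0.13 with normexp background correction. Ski had -0.12 ± 0.11 (SE), Smurf2 0.11 ± 0.12 (SE) and Smad5 0.05 ± 0.12 (SE). Another of the 5 Smad5 probes had -0.42 at an unadjusted p under 0.05 and an adjusted p of 1.00, while the remaining ones lay between 0.02 and 0.09. All 14 other genes that follow BMP signaling were tested, with a median of 0.05. Dlx2, well above background on 4 non-irradiated and 3 irradiated arrays, had -0.28 ± 0.21 (SE), but -0.045 with normexp background correction and -0.075 without replicate 4. Dlx3 had 0.43 ± 0.35 (SE), which rested on pair 3 and turned to -0.039 without replicate 3. Id2, a relative of Id1, had 0.11 ± 0.18 (SE), and -0.080 without replicate 2.

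**Figure D4:**
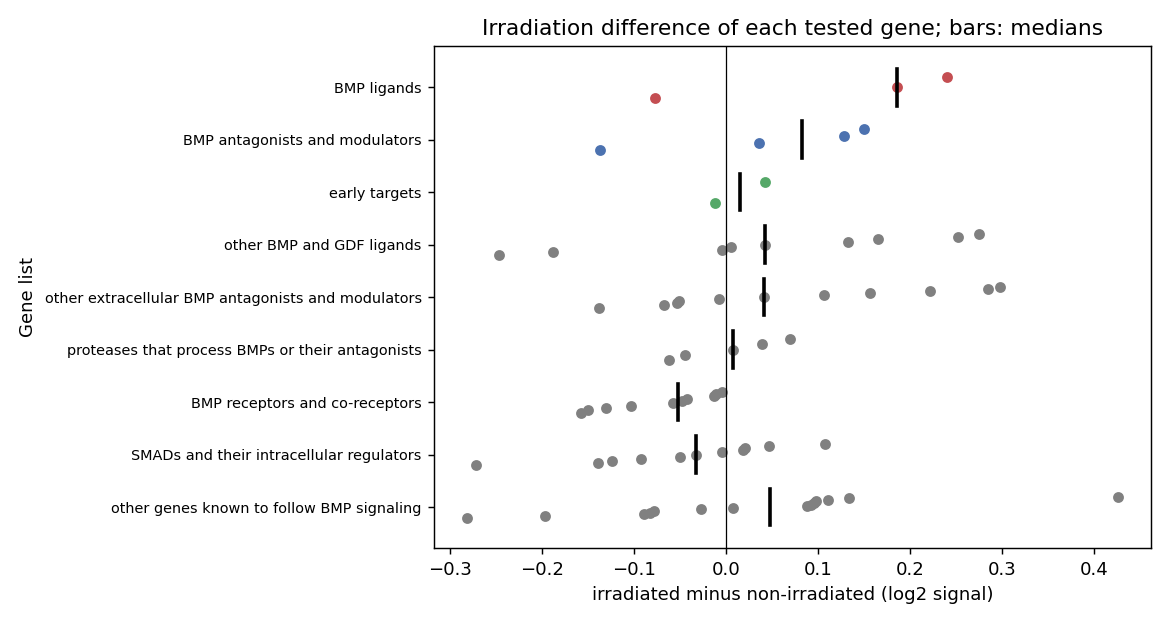
Irradiated minus non-irradiated log2 signal (horizontal axis) of each tested gene in 9 lists of the pathway (vertical axis), with 1 probe per gene. Black bars are list medians, which lie between -0.05 and 0.19.

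As a description over the 8 arrays, the named genes most like each member in level were found among 17555 probes well above background on all arrays. For Bmp2 they were Lrp10 (Pearson r = 0.98) and Serinc2 (r = 0.97), for Bmp4 Pln (r = 0.98) and Ppm1e (r = 0.97), and for Bmp7 Nnat and Prdm6 (r = 0.99 each). Arrays paired by replicate number are not independent, so no test was made of these values. For Grem1 they were Hspb2 (r = 0.997) and Kcng1 (r = 0.994), for Bmper Ahsa2 and Mat2a (r = 0.99 each), for Chrd Fkbp9 and Btbd7 (r = 0.995 each), and for Nog Akap2 (r = 0.97). For Id1 they were Bola1 and Hpgd (r = 0.98 each), and for Smad6 Atad2b (r = 0.97) and Hcrt (r = 0.94).

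Promoter windows of 300 bases from RefSeq on GRCr8 were matched for 7 members, Bmp4, Bmp6, Bmper, Chrd, Grem1, Id1 and Nog, and searched on both strands. GGCGCC was present in 4 of the 7 and in 11.02% of 33469 promoters, and GCCGNNGC in 6 of 7 and in 19.7%. CAGAC was present in 5 of 7 and in 50.1%, and CACGTG in 1 of 7, Bmp4, and in 6.42%. The window of Id1 held CAGAC and not the other letters. A match is a description of these letters and not of a site in use.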

How the data were processed

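The deposited scanner files of the authors hold spot intensity per array (Agilent Feature Extraction 11.0.1.1), background-subtracted but not normalized between arrays, and the deposited series table holds log2 values of the same arrays. Here log2 processed signals of 58717 rat spots were quantile normalized, outlying spots left out and spots of a probe averaged. Of 45598 probes, 26404 passed the background filter in the irradiated group, the non-irradiated group or both, and 26391 could be fitted with residual degrees of freedom in limma 3.58.1 (R 4.3.3), blocked by replicate number, with p-values adjusted by Benjamini-Hochberg. The pairing comes from the animal number shared by both arrays of a replicate number. Deviations from group means correlated at 0.608, 0.0542, 0.571 and 0.749 in pairs 1 to 4, and irradiated replicate 2 correlated at 0.439 with non-irradiated replicate 1. The p-value for irradiation sets the log2 fold change against the spread of the pair differences. Level differences between replicate numbers are removed by the block. The code was tested on simulated data. Named genes were all members, from each list the 2 genes with the smallest p and the 2 with the brightest probes, and for each member the 2 genes most like it, of which 1 is not reported here. Members and lists were chosen with earlier results of these data known. The test of replicate numbers and the fit without replicates 1 and 2 were chosen after seeing the data. Alternatives covered background correction, scaling, filters, the block, the variance prior and each replicate left out.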

Additional observations from a re-analysis of the deposited data

Results flagged for a closer look

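In 70 groups of 4 arrays, for 35 named probes, 4 arrays lay far from the other 3 of their group, about as many as chance gives at 1 in 20 groups. The dim Grem1 probe read 5.892 in non-irradiated replicate 1 and 4.06 to 4.29 in the others. Smad6 read 6.592 in non-irradiated replicate 4 and 6.20 to 6.22 in the others. Bmp1 read 13.81 in non-irradiated replicate 1 and 12.92 to 12.98 in the others. Acvr2a read 7.682 in non-irradiated replicate 1 and 6.91 to 7.01 in the others. Of these, 3 were in non-irradiated replicate 1. Irradiated replicate 1 was also the highest of its group for the dim Grem1 probe (5.73) and Bmp1 (13.65). For Acvr2a it was not, at 7.13 beside 7.26 in irradiated replicate 2.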

How the results depend on the processing

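Under all alternatives run, 0 probes had an adjusted p under 0.1 for irradiation, and 0 of the 9 members with a tested probe had an unadjusted p under 0.05. The medians by role ran from 0.085 to 0.29 for ligands, -0.058 to 0.19 for antagonists and -0.028 to 0.11 for targets with 1 replicate left out. The ligand values in that range were those of Bmp7. The antagonist median was below 0 only without replicate 2, and the target median was below 0 without replicate 1, 2 or 3, with normexp (-0.00086), with the mean signal (-0.0034) and without replicates 1 and 2 (-0.080). The antagonist median was 0.032 with normexp and with the mean signal and 0.0050 with the deposited values. The ligand median was 0.061 with normexp, 0.082 with the mean signal, 0.069 with the deposited values, 0.11 with scaling to the 75th percentile and 0.0047 without replicates 1 and 2. Signal over background limits Bmp6, 1 Bmp2 probe and the dim Grem1 probe. Bmp7 in replicate 1 (4.0 and 4.46) and Nog (5.26 to 5.67) were well above background but low. Their log2 fold changes of 0.19 and 0.13 both became 0.061 with normexp. The cause of the shifts that follow was not tested.

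Probes with an unadjusted p under 0.05 numbered 249 with normexp, 251 with the mean signal, 292 with the deposited values, 1658 without a filter on dim probes (more probes tested), 383 with a trended robust prior, and 389 to 1407 with 1 replicate left out. Without the replicate block there were 246, and dropping the block or pairing changed no other call. Probes called between replicate numbers were 3740 with the mean signal, 3675 with the deposited values and 616 without the filter, and 148 to 9659 with 1 replicate left out. Of member probes, 2 were called without the filter, Bmp7 and the brighter Grem1 probe, and there were 0 to 6 with 1 replicate left out. Leaving out replicates 1 and 2 together, chosen after seeing the data, gave 1673 probes for irradiation, and 1293 probes and 2 member probes between replicate numbers.

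With 1 replicate left out, log2 fold changes that turned ran from -0.15 to 0.050 for Bmp4, -0.057 to 0.13 for the dim Grem1 probe, -0.17 to 0.21 for Chrd, -0.11 to 0.058 for Id1 and -0.022 to 0.15 for Smad6. Others kept their sign but not their size, at 0.095 to 0.31 for Bmp2, 0.085 to 0.29 for Bmp7, 0.083 to 0.26 for Grem1, 0.050 to 0.17 for Nog, -0.32 to -0.014 for Bmper, 0.026 to 0.47 for Dand5, 0.0073 to 0.14 for Pcsk5, -0.29 to -0.024 for Acvr2a, 0.023 to 0.15 for Smurf2, -0.50 to -0.075 for Dlx2, 0.16 to 0.38 for Fstl3, -0.25 to -0.11 for Bmp5, 0.21 to 0.43 for Gdf6 and -0.40 to -0.17 for Smad4. With normexp, values nearer 0 were 0.061 for Bmp7 and Nog, -0.12 for Bmp3, 0.10 for Gdf6, 0.14 for Fstl3, 0.18 for Dand5, -0.13 for Smad4, -0.045 for Dlx2, 0.0035 for Chrd, 0.0096 for the dim Grem1 probe, 0.021 for Smad6 and 0.024 for Twsg1, and the mean signal also brought each of these nearer 0. Turns ran from -0.14 to 0.11 for Gdf10, -0.18 to 0.15 for Crim1, -0.22 to 0.26 for Twsg1, -0.0041 to 0.11 for Bmp1, -0.38 to 0.017 for Bmpr1b, -0.092 to 0.0037 for Acvr1, -0.15 to 0.075 for Rgma, -0.034 to 0.10 for Smad5, -0.039 to 0.68 for Dlx3 and -0.080 to 0.27 for Id2. Without replicates 1 and 2, Bmp4 was at 0.0047, Bmp7 at -0.10, Smad6 at -0.029, Twsg1 at -0.022 and Acvr1 at 0.018. With the deposited values, Nog was at -0.022, Rgma at 0.045, Smad5 at -0.12, Bmp7 at 0.069, Gdf6 at 0.15, Dlx2 at -0.086, Acvr2a at -0.099 and Smad6 at 0.10. With scaling to the 75th percentile, the dim Grem1 probe was at 0.15, Bmp7 at 0.11 and Chrd at 0.017. With normexp, Gdf10 was at 0.011 and Rgma at 0.028, and with the mean signal at 0.011 and 0.028. With all probes of a gene averaged, Twsg1 was at -0.055, Bmp1 at -0.00035, Smad5 at -0.041, Grem1 at 0.091, Acvr1 at -0.15, Smad4 at -0.15 and Id2 at 0.049.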
